A study of Mus musculus with 4 samples.

Results

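The genes described here make prostaglandins or receive them: the cyclooxygenases Ptgs1 and Ptgs2, the terminal synthases Ptges, Ptgds and Ptgis, and Ptger1, Ptger2, Ptger3 and Ptger4, which encode the EP receptors of prostaglandin E2. They were chosen by gene symbol, with earlier results of these data known. Of the 9 genes 8 have a probe set annotated to their symbol alone, among 19938 genes so measured. No probe set is listed for Ptgs1, whose RNA level was not analysed here. RNA came from ATDC5, an established chondroprogenitor cell line that was derived from a mouse teratocarcinoma. In the day 0 group cells were kept undifferentiated in basal medium with serum and ascorbic acid, and in the day 15 group the same medium held insulin, transferrin and selenite for 15 days. Each group had 2 arrays with 1 sample each, labelled replicate 1 and 2. All 4 samples thus had ascorbic acid, and no sample was cultured for 15 days without the supplement, so time in culture and the supplement cannot be told apart. Whether the samples of a day were grown as separate cultures is not given in the labels. The p-values therefore rest on a spread between samples that could be purely technical. In such bulk RNA fewer cells of a type and less RNA per cell cannot be told apart.

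Prostaglandins are lipid signals made from arachidonic acid, which phospholipases free from membranes. A cyclooxygenase turns it into the common precursor prostaglandin H2, and a terminal synthase then decides which prostaglandin forms. Ptgs1 is the constitutive cyclooxygenase and Ptgs2 the inducible one, which responds to cytokines, growth factors and mechanical load. In cartilage prostaglandin E2 is a known regulator of chondrocyte differentiation and, in arthritic joints, of matrix loss.

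Of the 8 measured genes 1 rose, Ptgis, and it did so by 13.9-fold. Ptgs2 was lower on both day 15 arrays than on both day 0 arrays, by 2.40-fold, without passing the test over all genes. The other 6, which include all 4 EP receptors, differed by at most 0.19 log2 and did not pass. The call used here is a Benjamini-Hochberg adjusted p below 0.05 from limma over all 19938 genes, and 1.72% of all genes were called. Values are log2 of the quantile normalized intensity plus 1, the difference is always day 15 minus day 0, and errors are the SD of 2 arrays or limma's SE. Each of the 8 genes has a single probe set, and probe sets differ in brightness for the same amount of RNA, so the genes are not ranked by level. The level of a gene is set beside the median or first quartile of all genes only to mark values that could be background.

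**Figure D1:**
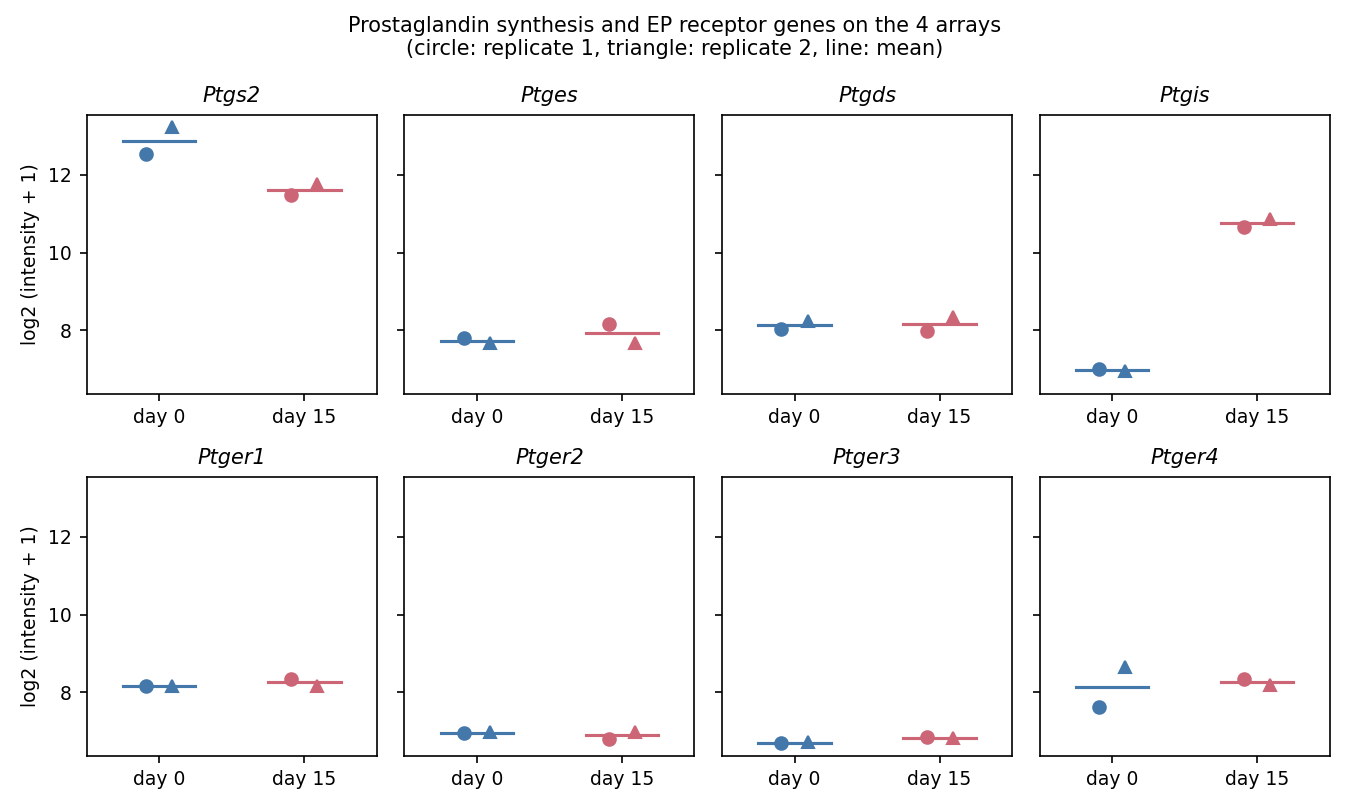
Log2 (intensity + 1) of the 8 genes at day 0 and day 15, 1 point per array, with circles for replicate 1, triangles for replicate 2 and a line at the mean of the 2 arrays. The mean of Ptgis moves from 6.97 to 10.77 and that of Ptgs2 from 12.88 to 11.62. The day 15 means of the other 6 genes stay within 0.19 log2 of their day 0 means.

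The promoter of Ptgs2 is shown because this gene had non-overlapping days and is known to be controlled through C/EBP, cAMP response and E-box elements near its start. RefSeq promoter windows of GRCm38.p6, which run from 250 bases before to 50 bases after the annotated start, held 7 of the 9 genes. Ptgis and Ptger1 had no window and were not searched, whereas Ptgs1, which has no probe set, had a window. The 250 bases before the start of Ptgs2 lie at chr1:150099781-150100030 on the plus strand, and capitals mark a match to the core of a C/EBP site, TTGCNNAA, which begins 69 bases before the start. The second stretch lies after the start, at chr1:150100036-150100059 on the plus strand, and its capitals mark the core of a cAMP response element (TGACG, here on the minus strand as CGTCA) that overlaps an E-box (CACGTG).
Ptgs2, before the start: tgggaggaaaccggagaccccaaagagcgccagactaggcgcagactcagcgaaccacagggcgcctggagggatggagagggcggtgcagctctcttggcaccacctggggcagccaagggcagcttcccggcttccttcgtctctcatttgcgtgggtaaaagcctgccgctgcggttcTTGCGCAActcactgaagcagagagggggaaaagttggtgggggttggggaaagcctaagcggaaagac
Ptgs2, after the start: caccactaCGTCACGTGgagtccg

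The motifs were searched on both strands of the 300 bases. Among 32851 windows of all genes 20.8% held the core TGACG, 7.15% the E-box CACGTG and 10.8% the C/EBP core. Of the 7 windows of the genes described here, Ptgs2 alone held that core and the E-box, and Ptgs2 and Ptger2 held the C/EBP core. The window of Ptgds, the synthase of prostaglandin D2, held an AP-1 site (TGANTCA) and a match to the NF-kB consensus, which 7.81% and 8.46% of all windows hold. Ptges and Ptger2 held a Sox site (AACAAT, 10.7% of all windows). GC boxes (GGGCGG) were found in the windows of Ptgs2, Ptges, Ptger3 and Ptger4, against 35.7% of all windows. The full cAMP response element (TGACGTCA) and the TATAAA box were in none of the 7, against 1.79% and 13.6% of all windows. These matches describe letters and were not measured as binding sites.

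Ptgs2, the inducible cyclooxygenase, had log2 intensities of 12.54 and 13.22 at day 0 and of 11.48 and 11.76 at day 15. The deposited intensities behind them were 5880 and 9534 at day 0 and 2870 and 3486 at day 15. Both day 15 arrays were thus below both day 0 arrays, and the day 0 arrays lay further apart than the day 15 arrays. The difference was −1.26 ± 0.27 log2 (SE; 95% interval −1.92 to −0.60; limma adjusted p = 0.118), which did not pass. It passed with an intensity trend and robust hyperparameters in limma (adjusted p = 0.0444). Without day 0 replicate 1 the difference was −1.60 log2, and without day 0 replicate 2 it was −0.92.

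Among terminal synthases, Ptgis was the member that changed. It encodes prostacyclin synthase, which turns prostaglandin H2 into prostacyclin, a vasodilator best known from vessel walls. Its deposited intensity was 125 and 128 at day 0 and 1633 and 1903 at day 15. On the log2 scale that was 7.01 and 6.94 at day 0 and 10.66 and 10.88 at day 15. The 2 arrays of each day nearly coincided, and the days lay far apart. Ptgis rose by 3.80 ± 0.17 log2 (SE; 95% interval 3.37 to 4.22; limma adjusted p = 0.00166), and its increase ranked 26 among the 19938 genes. Without any 1 of the 4 arrays the difference was 3.69 to 3.90 log2 and stayed called. The day 0 mean of 6.97 ± 0.05 (SD, n = 2) lay below the first quartile of the mean levels of all genes, 7.15, and no detection call shows whether it stood above background.

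The other terminal synthases did not pass. Ptges, the inducible synthase of prostaglandin E2, had log2 intensities of 7.80 and 7.66 at day 0 and of 8.15 and 7.68 at day 15. Day 15 replicate 2 lay between the day 0 arrays, and the difference of 0.19 ± 0.22 log2 (SE; limma adjusted p = 0.878) turned to −0.05 without day 15 replicate 1. Ptgds, the lipocalin-type synthase of prostaglandin D2, had 8.04 and 8.24 at day 0 and 7.99 and 8.33 at day 15. The day 15 arrays enclosed the day 0 arrays, and the difference was 0.02 ± 0.20 log2 (SE; limma adjusted p = 0.994). The 95% intervals of the differences were −0.34 to 0.72 for Ptges and −0.47 to 0.50 for Ptgds. Changes of any size inside those bounds remain possible.

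The 4 EP receptors share prostaglandin E2 as ligand and differ in signaling: EP1 acts through calcium, EP2 and EP4 raise cAMP, and EP3 mostly lowers it. None of their genes passed. Ptger1 had log2 intensities of 8.15 and 8.15 at day 0 and of 8.34 and 8.17 at day 15. Its 4 values lay close together, and the difference was 0.10 log2 (95% interval −0.31 to 0.52). Ptger3 had 6.69 and 6.72 at day 0 and 6.85 and 6.81 at day 15, a difference of 0.13 log2 (95% interval −0.27 to 0.52). For Ptger1 and Ptger3 both day 15 arrays were above both day 0 arrays by these small amounts. For Ptger3 this held after quantile normalization but not before. Its deposited intensities were 101 and 110 at day 0 and 107 and 115 at day 15, which overlapped.

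The genes of the cAMP-raising receptors overlapped between days. Ptger2 had 6.94 and 6.97 at day 0 and 6.80 and 6.98 at day 15, with a difference of −0.07 log2 (95% interval −0.48 to 0.35). Ptger4 had 7.61 and 8.66 at day 0 and 8.35 and 8.19 at day 15. The day 0 arrays of Ptger4 were more than 1 log2 apart and enclosed both day 15 arrays, so its interval was the widest of the 8 genes (difference 0.13 log2, 95% interval −0.73 to 1.00). Leaving out day 0 replicate 1 gave a difference of −0.39, and leaving out day 0 replicate 2 gave 0.66. Limma adjusted p ran from 0.898 to 0.970 over the 4 receptors. All 4 receptor genes lay below the median mean level of all genes, 8.72, as did Ptges and Ptgds. No detection call was used, so these values may be background.

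Counted by overlap of the normalized values, 4 of the 8 genes had both day 15 arrays on 1 side of both day 0 arrays. Ptgis, Ptger1 and Ptger3 were above and Ptgs2 was below. Of all genes 40.1% did so, 22.3% above and 17.8% below. The median difference of the 8 genes was 0.11 log2, and that of all genes was 0.02. By size of the difference regardless of sign, the median was 0.13 log2 for the 8 genes and 0.16 for all genes.

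**Figure D2:**
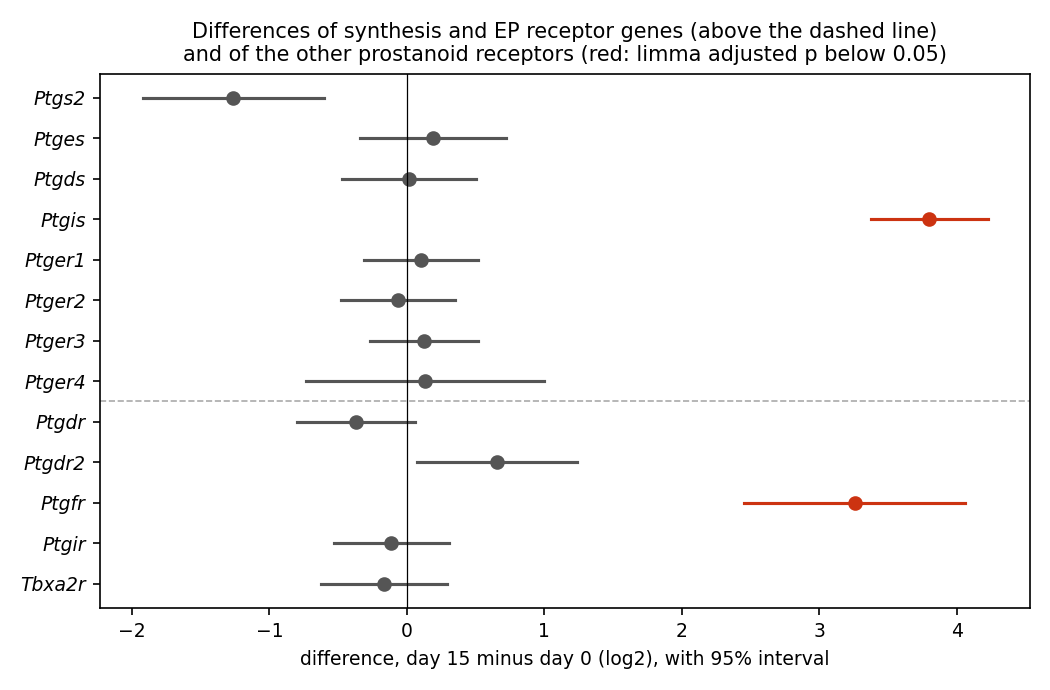
Difference between day 15 and day 0 in log2, as points with limma's 95% interval, for the 8 genes above the dashed line and the other 5 prostanoid receptors below it. Ptgis at 3.80 and Ptgfr at 3.26 are the called genes (red), the interval of Ptgs2 lies wholly below 0, and those of the 4 EP receptors all include 0.

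The receptors of the other prostanoids were measured as a list of 5, of which 1 rose, beside 1.30% of all genes. Ptgfr, the receptor of prostaglandin F2 alpha, had log2 intensities of 7.59 and 6.67 at day 0 and of 10.25 and 10.53 at day 15. The days were clearly apart although the day 0 arrays differed by 0.92 log2. Ptgfr rose 9.56-fold, by 3.26 ± 0.32 log2 (SE; limma adjusted p = 0.0125), and stayed called without any 1 array (2.80 to 3.72 log2, adjusted p = 0.0036 to 0.0492). Its day 0 mean of 7.13 also lay below the first quartile of 7.15, so this fold, like that of Ptgis, starts from a level that may be background. Ptgir, the receptor of prostacyclin, the product of Ptgis, had 7.27 and 7.46 at day 0 and 7.29 and 7.21 at day 15. These overlapped, and the difference was −0.11 log2 (95% interval −0.53 to 0.30; limma adjusted p = 0.921). The Ptgir means of 7.37 and 7.25 lay below the median level of all genes, 8.72, so they may be background. Ptgdr2, a receptor of prostaglandin D2 found on immune cells, differed by 0.65 ± 0.24 log2 (SE) and did not pass (limma adjusted p = 0.346).

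Upstream of the cyclooxygenases, none of 10 measured genes of arachidonic acid release (phospholipases and the phospholipase activator Plaa) was called by limma. None had an unadjusted p below 0.05, a level that 12.2% of all genes reached. Pla2g4a, the cytosolic phospholipase that frees arachidonic acid on calcium signals, had 11.65 and 12.19 at day 0 and 11.66 and 11.37 at day 15, which overlapped. Pla2g6, a calcium-independent phospholipase, had a difference of −0.45 ± 0.19 log2 (SE; limma adjusted p = 0.450). Of 5 other terminal synthases none was called by limma and 1 had an unadjusted p below 0.05. That was Tbxas1, the thromboxane synthase, at 0.64 ± 0.23 log2 (SE; limma adjusted p = 0.344), and Ptges2, a second synthase of prostaglandin E2, was at −0.36 ± 0.19 (0.573).

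Genes that carry or break down prostaglandins also stayed short of the threshold, with 0 of 6 called by limma and 3 with an unadjusted p below 0.05 (12.2% of all genes). Slco2a1, the transporter that takes prostaglandins up for breakdown, had log2 intensities of 9.12 and 11.13 at day 0 and of 8.35 and 8.05 at day 15. Both day 15 arrays were below both day 0 arrays, but the day 0 arrays differed by 2.00 log2. The difference was −1.92 ± 0.62 log2 (SE; limma adjusted p = 0.280), and leaving out day 0 replicate 1 gave −2.93 (adjusted p = 0.00699), leaving out day 0 replicate 2 −0.92. Ptgr2, a prostaglandin reductase, was at 9.21 and 9.02 at day 0 and at 10.77 and 9.49 at day 15, a difference of 1.01 ± 0.41 log2 (SE; limma adjusted p = 0.412). Leaving out day 15 replicate 1 gave 0.38 log2, and leaving out day 15 replicate 2 gave 1.65.

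In the lipoxygenase branch, which turns the same arachidonic acid into leukotrienes, 0 of 10 genes were called by limma and none had an unadjusted p below 0.05. Alox15 differed by −0.27 log2 and Lta4h by 0.25, the largest of the branch in size. Of 15 genes of cAMP signaling and its response none was called by limma. Of these, 3 had an unadjusted p below 0.05, beside 12.2% of all genes. Fos, an immediate early gene, had 10.78 and 7.99 at day 0 and 11.89 and 11.64 at day 15, and its difference of 2.38 ± 0.84 log2 (SE; limma adjusted p = 0.333) rested on day 0 replicate 2: without that array it was 0.99, and without day 0 replicate 1 it was 3.78 (adjusted p = 0.0033). Rgs2, a regulator of G protein signaling, differed by 0.83 ± 0.37 (0.474).

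Cytokine and NF-kB genes known to induce or accompany Ptgs2 included 1 that fell, out of 15 measured, beside 0.411% of all genes. Nfkb2, a subunit of NF-kB, had log2 intensities of 11.54 and 11.40 at day 0 and of 10.25 and 10.35 at day 15, so the days did not overlap. It fell by 1.17 on the log2 scale (SE 0.17; limma adjusted p = 0.0366), a call lost without any 1 of the 4 arrays (adjusted p = 0.102 to 0.145) while the difference stayed between −1.24 and −1.10 log2. Nfkbia, the inhibitor that NF-kB itself induces, was at 11.76 and 11.40 at day 0 and at 10.88 and 10.37 at day 15. All of its day 15 values were below those of day 0, but it did not pass (limma adjusted p = 0.180). The median difference of these 15 genes was −0.25 log2, with 6 lower without overlap, 1 higher and 8 overlapping (17.8% of all genes were lower and 22.3% higher without overlap).

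Over all 66 measured genes of these 7 lists, 1 was called higher and 1 lower by limma, against 1.30% and 0.411% of all genes. Their median difference was −0.02 log2, beside 0.02 for all genes, and 15 were higher and 16 lower without overlap, against 22.3% and 17.8% of all genes. Without day 0 replicate 2, day 15 replicate 1 or day 15 replicate 2 the called genes of these lists numbered 1, Ptgfr, and without day 0 replicate 1 they numbered 3, Ptgfr, Slco2a1 and Fos.

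**Figure D3:**
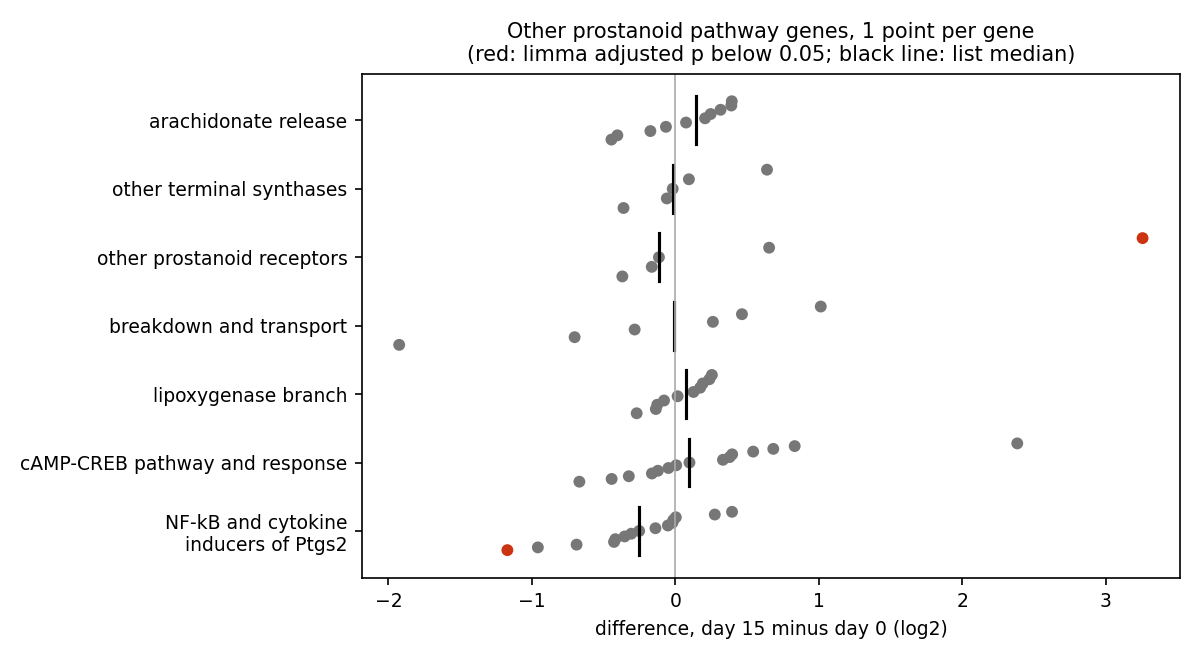
Difference between day 15 and day 0 in log2 for 66 other genes of the prostanoid pathway and its signaling, 1 point per gene, in 7 lists with a black line at each list's median. The called genes (red) are Ptgfr at 3.26 and Nfkb2 at −1.17, and every list median lies between −0.25 and 0.14.

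The genes whose 4 values were most like those of Ptgis, after subtracting each gene's day 0 mean, were Apod, Slpi and Flvcr2. The root mean square distance over the 4 arrays was 0.037, 0.140 and 0.163 log2, among 10357 genes whose higher group mean reached the median of all genes. Apod, a secreted lipid-binding protein, rose by 3.76 log2, Slpi, a secreted protease inhibitor, by 3.95, and Flvcr2, a membrane transporter, by 3.63. The nearest to Ptgs2 were Sbno2, Hspb1 and Tiam1, at 0.053, 0.054 and 0.057 log2. Hspb1 encodes a small heat shock protein and Tiam1 an activator of the GTPase Rac. Like Ptgs2, these 3 did not pass, with differences of −1.26, −1.30 and −1.20 log2 (limma adjusted p = 0.0869, 0.0886 and 0.127). With 4 arrays many genes lie near any profile, so these are descriptions.

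Of 8 chondrocyte markers 6 rose by limma, beside 1.30% of all genes, and Sox9 and Col9a1 did not pass. Their day 0 means ran from 6.70 for Matn1, below the first quartile of 7.15, to 12.03 for Sox9 among these 8. Most markers of macrophages, in contrast, differed between the replicate numbers on both days. The summed intensity of 10 macrophage and microglia markers was 9260 and 9057 on the replicate 1 arrays of day 0 and day 15, and 1928 and 2655 on the replicate 2 arrays. C1qb, a complement subunit of macrophages, was at 11.36 and 11.11 log2 on the replicate 1 arrays and at 6.09 and 5.80 on the replicate 2 arrays. Of these 10 markers 8 exceeded replicate 2 by 0.5 log2 or more in replicate 1 of each day, as did 2 of 7 myelin and glia markers and 2.45% of all genes. The other 2, Adgre1 and Ptprc, ran the other way, with replicate 1 below replicate 2 by 0.25 and 0.32 log2 at day 0 and by 0.16 and 0.76 at day 15. Cd68 was also higher at day 15 within each replicate number, at 9.41 and 10.66 in replicate 1 and at 8.10 and 9.24 in replicate 2. Between days limma called none of either list, and 0 and 1 of them had an unadjusted p below 0.05, which 12.2% of all genes reached. Summed markers of endothelium, where Ptgis is well known, were 816 and 775 at day 0 and 834 and 827 at day 15. None of these 6 was called by limma and 1 had an unadjusted p below 0.05. The median level of these 6 markers, 7.06, lay below the first quartile of 7.15, so their values may be background. The part of other cells in the changes was not tested. None of 6 adipocyte and none of 6 leptomeningeal and mesothelial markers was called by limma, and 1 and 0 of them had an unadjusted p below 0.05.

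None of the 8 prostaglandin genes was 0.5 log2 higher in replicate 1 on both days, but 4 of the 66 other pathway genes (6.06%) were, beside the 2.45% of all genes. Hpgds, the prostaglandin D2 synthase of blood cells, was at 7.41 and 7.46 on the replicate 1 arrays of day 0 and day 15 and at 6.42 and 6.34 on the replicate 2 arrays. Hpgd, the dehydrogenase that inactivates prostaglandins, was at 10.63 and 9.68 in replicate 1 and at 8.57 and 8.95 in replicate 2. Ptgr1, the reductase of the next step, was at 10.89 and 11.22 in replicate 1 and at 10.22 and 10.41 in replicate 2. These enzymes, picked after their values were seen, were thus higher in replicate 1 on both days, as were 8 of the 10 macrophage markers, and their days overlapped. Rgs2 was the other such gene, and the part of macrophages in these values was not tested. Ptgis, with 0.07 log2 at day 0 and −0.21 at day 15 between replicate 1 and replicate 2, did not follow it.

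**Figure D4:**
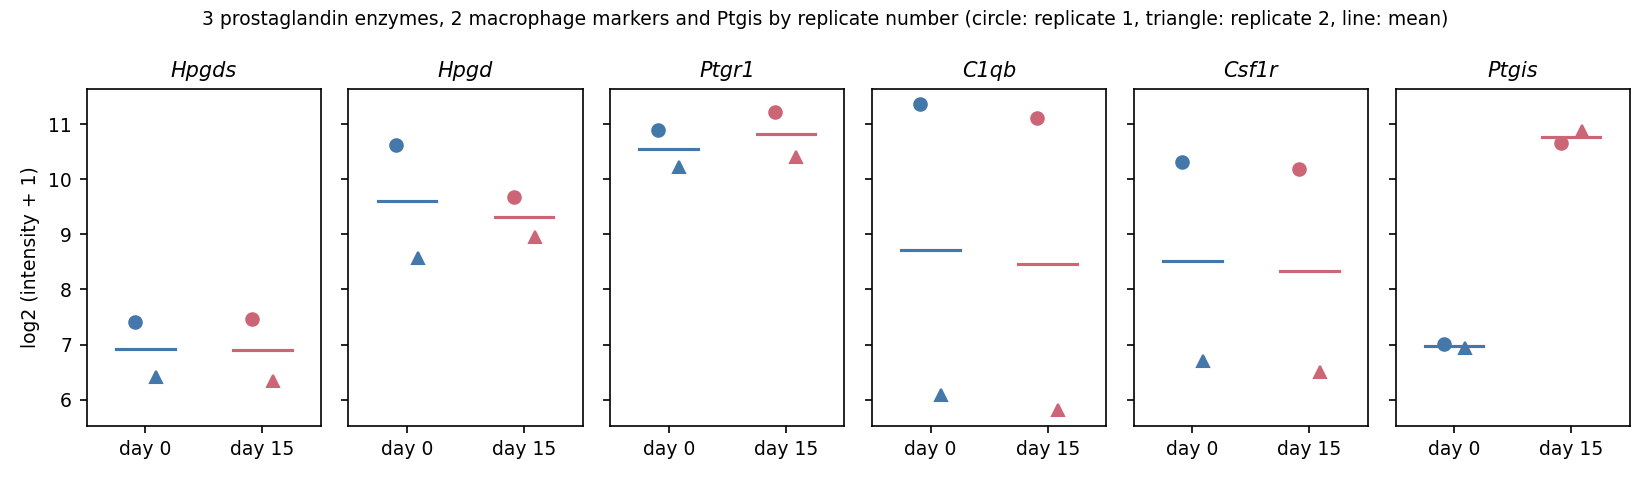
Log2 (intensity + 1) on the 4 arrays for the enzymes Hpgds, Hpgd and Ptgr1, the macrophage markers C1qb and Csf1r, and Ptgis, with circles for replicate 1, triangles for replicate 2 and a line at the mean. In the first 5 genes replicate 1 is the higher on both days, whereas Ptgis separates day 0 from day 15.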

How the data were processed

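Biotin-labelled DNA made from the RNA of 4 samples was measured on 1-colour whole-transcript arrays, per the labels' protocols. The table the authors deposited gives each probe set a processed intensity on every array, and its values look linear. How background was corrected, probes summarized and arrays normalized is not given in the sources used here. The genome build was mm9, per the submitters' processing notes.

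Of 35512 probe sets 21789 have 1 gene symbol in the platform annotation, 1621 have several and 12102 have none listed; the last 2 kinds were left out. Symbols were updated by gene identifier for 21698. The brightest probe set per gene was used. Intensities plus 1 were turned to log2 and quantile normalized over all probe sets, since array medians ran from 7.87 to 8.06. Limma 3.58.1 in R 4.3.3 compared the days over 19938 genes (lmFit and eBayes, day as the only term, two-sided). The number of arrays limits the precision. The code was tested on simulated data with 2 arrays per day. Of 50 genes changed by 1 log2 it called 8%, and of 50 changed by 2 log2 it called 90%.

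Members and lists were chosen with earlier results of these data known. All 9 members were named. From each pathway list up to 4 called genes were named, or the 2 of largest difference where fewer than 2 were called, and the 3 genes nearest to the members of largest difference and of highest level. Genes named because they followed the replicate number, and C1qb, Csf1r, Cd68, Adgre1, Ptprc, Plaa and Ptgir, were picked after their values were seen. Of 72 other pathway genes 66 were measured. Sequences are RefSeq's (GRCm38.p6). Figures used matplotlib 3.10.9 in Python 3.11.15.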

Additional observations from a re-analysis of the deposited data

How the results depend on the processing

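Alternatives planned were the deposited scaling, median centring, a pseudocount of 16 and trend and robust hyperparameters. Also planned were a filter at the median level, the mean of probe sets, the replicate block and leaving out each array. Ptgis kept its direction in all of them, at 3.65 to 3.90 log2, and its call wherever all 4 arrays were used. It has 1 probe set, so the mean of probe sets repeated the main difference. It reached the median level of 8.72 only through its day 15 values, so the filter was no independent check. The number of called genes was 342 and, without 1 array, 178 to 284; the lowest count was without day 15 replicate 1, and it was 208 without day 15 replicate 2. In these fits the normalization of all 4 arrays was kept, and a day left with 1 array was taken to have the spread of the other day. Called members were 1, and 2 with trend and robust hyperparameters or the replicate block, where Ptgs2 was added. Called genes of the other pathway lists were 2 and, without 1 array, 1 to 3. Differences of uncalled members changed sign without 1 array: Ptges ran from −0.049 to 0.43 log2, Ptgds from −0.15 to 0.19, Ptger2 from −0.16 to 0.025 and Ptger4 from −0.39 to 0.66. The cause was not tested.

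The replicate number does not pair the samples by the labels, and with 2 pairs the data cannot settle it; the deviations of the same-numbered arrays from their day means correlated at 0.403 across genes. With the replicate block 628 genes were called, of which 2 were members (Ptgs2, adjusted p = 0.0293, beside Ptgis) and 3 other pathway genes (Nfkbia, 0.0416, was added). Dim genes limit what can be seen. The 95% intervals of the EP receptor genes have lower ends of −0.73 to −0.27 log2 and upper ends of 0.35 to 1.00. Changes of any size inside a gene's interval remain possible.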
